A study of Mus musculus with 12 samples.

Results

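The genes described here are 10 members of the VEGF, angiopoietin and ephrin families of vascular signals: the ligands Vegfa, Vegfb, Vegfc, Pgf, Angpt1 and Angpt2, the receptors Flt1 and Flt4, the co-receptor Nrp2, and the membrane-bound ephrin Efnb2. They were chosen by name, with all array probes that carry one of the 10 symbols, which gave 15 probes among 39429 distinct probes and 10 genes among the 18559 genes and transcripts tested. Ovarian RNA came from 12 females of the inbred mouse strain C57BL/6J, each 2 months old. Control mice (C1 to C4) ate a normal diet, early-life mice (E1 to E4) ate a vitamin D deficient diet in early life and not later, and peripubertal mice (P1 to P4) ate it around puberty and not at other times, with 4 females in each group. Transcripts were measured on Agilent arrays with 2 dyes, Cy3 and Cy5, where each spot holds a printed probe and its brightness in a dye follows how much labelled RNA has bound.

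The ovary grows and loses blood vessels with every cycle, which few other adult tissues do. Vegfa, made by granulosa and luteal cells, drives the growth of capillaries into the follicle wall and the corpus luteum; Flt1 binds Vegfa, Vegfb and Pgf, while Flt4 with the co-receptor Nrp2 passes on the signal of Vegfc, which is best known in lymphatic vessels. Angpt1, made largely by cells around the vessel wall, activates the receptor Tek and keeps vessels stable, Angpt2 acts as its context-dependent antagonist, and Efnb2 marks arterial endothelium and signals to Ephb4 on veins.

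On every one of the 6 arrays 2 mice of the same group were hybridised together, odd-numbered mice in Cy3 and even-numbered ones in Cy5. The peripubertal arrays were on a slide of their own, so an effect of that slide and an effect of that diet cannot be told apart. Per sample, the median spot reached 147 to 331 intensity units (6.85 to 9.49 times the local background), and the scanner software called 59.3% to 65.5% of probes well above background. Markers of granulosa cells, oocytes, luteal cells and blood endothelium were well above background in all 12 samples, apart from the endothelial factor Erg, which was above it in 0 samples. The lymphatic factor Prox1 was above background in 1 sample, and Ccl21a had 0 probes under that name. Lymphatic endothelium was therefore read through Lyve1, Pdpn, Mmrn1 and Reln, of which Reln was above background in 9 samples.

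The names of the control and early-life groups are not settled. The 8 columns of these groups in the deposited value table all matched scanner channels that the labels give to the opposite group, at a correlation of at least 0.9998 across features. If the scanner files carry the wrong names, each difference of the early-life mice from the controls changes its sign, and the comparisons of the peripubertal group with control and with early life trade places. All directions given below follow the scanner files. The 4 peripubertal columns matched no array (best correlation 0.874 to 0.897).

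Several of the genes were read by more than 1 probe, in different places. Positions are those in the files, on build mm9, where no exon or UTR annotation was used. All probes are 60 bases long, and the first 30 bases are printed, 5′ to 3′ in lower case, for most of the probes on which the results turn. The first Vegfa probe lies on the minus strand of chromosome 17, at chr17:46154387-46154446. The Flt1 probes are on the minus strand of chromosome 5. The first, assigned to NM_010228, lies at chr5:148373791-148373850, and the second, assigned to the transcript model ENSMUST00000110529, lies 73021 bases away at chr5:148446872-148446931. Flt1 is known to produce, besides the full receptor, shortened transcripts that encode a secreted form which traps its ligands; the files do not say which form the second probe reads. The Nrp2 probes are on the plus strand of chromosome 1, the first at chr1:62843298-62843357 (NM_001077406) and the second 21771 bases further at chr1:62865129-62865188 (NM_001077403). Probes of the same gene, compared for Flt1, Nrp2 and Efnb2, shared no run of more than 7 bases.
Vegfa first probe: cagatcggtgacagtcactagcttgtcctg
Flt1 first probe: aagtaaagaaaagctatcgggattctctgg
Flt1 second probe: ggagggtactgccgttcctgtgtggtattt
Nrp2 first probe: ggtttctgttggctgtcattgtcatctcca
Nrp2 second probe: tgagccagatcacgggaactcgagagcttt
Vegfc probe: tctgtgtttattgaaccatgtggattactg
Angpt1 probe: catgtgtgtagcaatttgatacgcatagct
Efnb2 probe: gtcatcggttggctacgttttggttctatg

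Of the 15 probes, 13 were well above background in all 12 samples. A further Flt1 probe and a second Efnb2 probe were above it in 0 samples, and none was saturated. The bright second Nrp2 probe had its 4 control spots set aside as outliers by the scanner software and was left out of the main test, so that 12 probes passed the filter and the brightest of a gene stood for it. Below, a level is a log2 intensity adjusted for the dye, with SD over the mice of a group, and levels are compared between mice and never between probes. A difference is on the log2 scale with its standard error from limma. Adjusted p values are Benjamini-Hochberg values over all 18559 genes and transcripts, with 0.05 as the threshold. For the second probe of a gene they are taken over all probes kept in that fit.

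**Figure D1:**
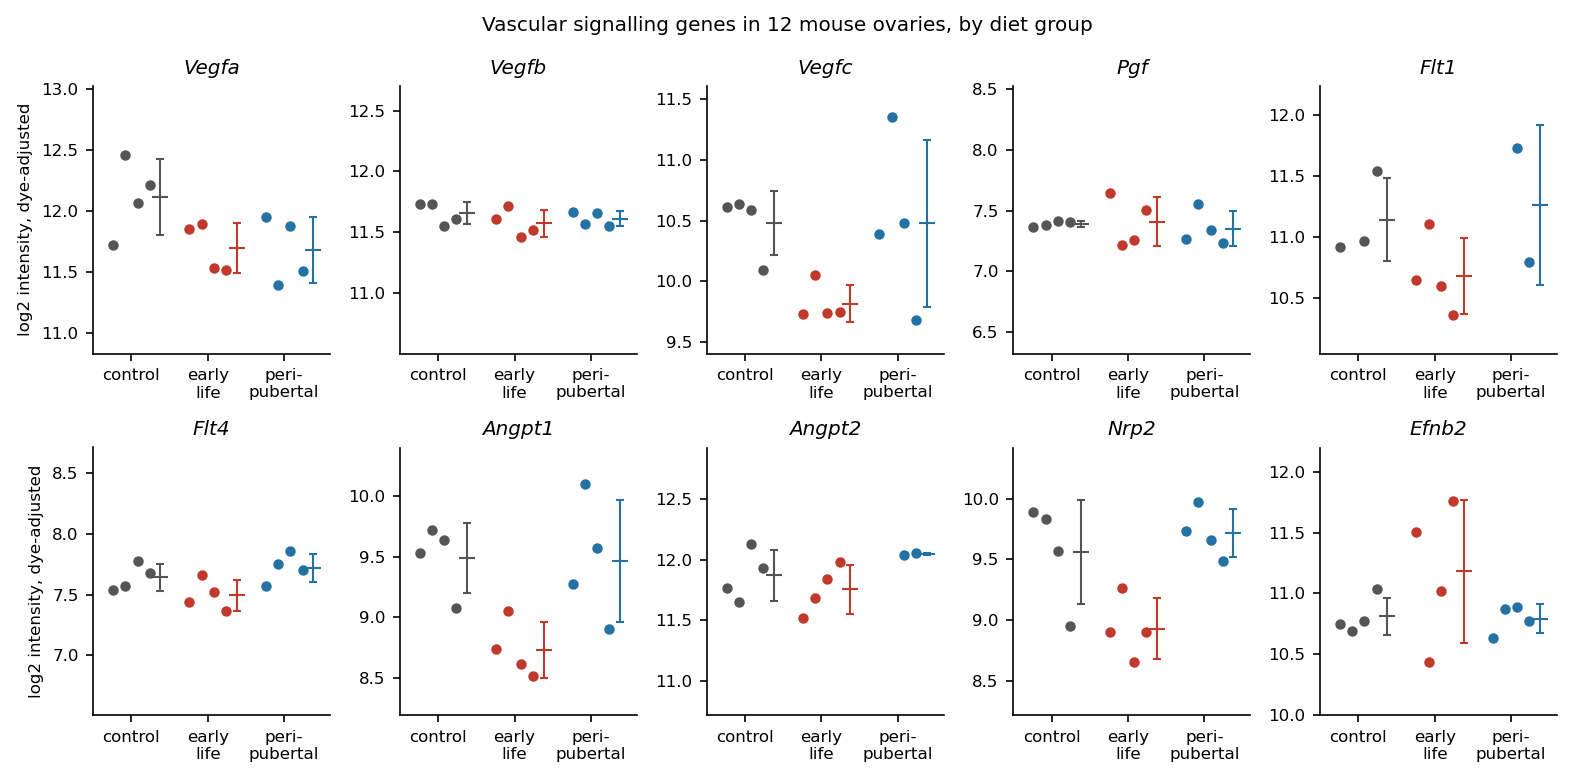
Level of each gene (vertical axis, log2 intensity adjusted for dye, the same span in every panel) in the 12 ovaries by diet group; points are mice in order of replicate, and the bar beside them is the mean with SD. Vegfc, Angpt1 and Nrp2 sit low in the early-life mice, Efnb2 has its widest spread in that group, and Vegfb varies little anywhere.

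Early-life and control mice were compared to ask whether vascular signals of the adult ovary differ after a diet that lacked vitamin D in early life. No member passed the threshold (0 of 10, adjusted p 0.31 to 0.97), where 4 of 18559 genes or 0.0216% of all did. The values of 8 of the 10 genes were lower in the early-life mice, with a median difference of -0.28 against -0.02 over all genes tested. The groups did not overlap in 2 of the 10 members, which is near the 17.1% of all genes with that pattern. At an unadjusted p under 0.05, 2 members (Angpt1 and Nrp2) and 2583 of all genes were counted.

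Angpt1 showed the lowest difference from control. Its level was 9.53, 9.72, 9.63 and 9.08 in C1 to C4 and 8.74, 9.05, 8.62 and 8.52 in E1 to E4, so that every early-life mouse was below every control mouse. The difference was -0.76 ± 0.30 (1.69-fold lower, 95% interval -1.43 to -0.08, n = 4 and 4, limma p 0.031, adjusted p 0.32). Angpt2, its antagonist on Tek, showed no such separation. Its level was 11.87 ± 0.21 in control and 11.76 ± 0.20 in early-life mice (SD, n = 4 each), a difference of -0.11 ± 0.15 (limma adjusted p 0.73).

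Vegfc, the ligand of Flt4, was the other gene with all early-life values below all control values. Its level was 10.61, 10.64, 10.59 and 10.09 in C1 to C4 and 9.73, 10.05, 9.74 and 9.74 in E1 to E4. In each group 3 mice lay close together, and C4 and E2 stood apart from their groups and close to one another. The difference was -0.66 ± 0.35 (1.58-fold lower, 95% interval -1.45 to 0.12, n = 4 and 4, limma adjusted p 0.42). The receptor Flt4 differed by -0.15 ± 0.11 (limma adjusted p 0.55), from 7.64 ± 0.11 to 7.50 ± 0.13 (SD, n = 4 each). Its probe was dimmer, with a median signal of 173 units against 1170 for Vegfc, so the sizes of their differences are not compared. In the other ways of processing, apart from leaving out single mice, the Flt4 difference was -0.23 to -0.15.

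Nrp2, which binds both semaphorins and Vegfc, was lower by a like amount. On the first probe its level was 9.89, 9.83, 9.57 and 8.95 in C1 to C4 and 8.90, 9.27, 8.65 and 8.90 in E1 to E4. The groups overlapped through C4 and E2, and 15 of the 16 pairs of mice had the early-life mouse lower. The difference was -0.63 ± 0.24 (95% interval -1.17 to -0.09, n = 4 and 4, limma p 0.027, adjusted p 0.31). With outlier spots kept, the second probe gave -0.57 ± 0.26 (limma adjusted p 0.38) from levels of 12.30, 12.27, 12.06 and 11.50 in controls and 11.50, 11.87, 11.17 and 11.33 in early-life mice. Both Nrp2 probes thus placed C4 lowest among controls and E2 highest among early-life mice.

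Flt1 was read by a pair of probes well above background. On the first, where C2 had no usable spot, the level was 10.92, 10.97 and 11.54 in C1, C3 and C4 and 10.65, 11.11, 10.60 and 10.36 in E1 to E4, and the groups overlapped. The difference there was -0.44 ± 0.36 (limma adjusted p 0.58, n = 4 and 3). On the second probe the level was 9.97, 10.39, 10.40 and 10.74 in C1 to C4 and 8.95, 9.58, 9.64 and 9.28 in E1 to E4. Every early-life mouse was below every control mouse on that probe. This difference was -1.01 ± 0.31 (2.01-fold lower, 95% interval -1.70 to -0.32, n = 4 and 4, limma p 0.0082), and its adjusted p over all probes was 0.27. Whether the probes of Flt1 differed from one another in their response was not tested.

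Vegfa was read by both of its probes in all mice. The first probe gave 11.72, 12.46, 12.06 and 12.21 in C1 to C4 and 11.85, 11.89, 11.53 and 11.52 in E1 to E4. Of the control mice, 3 lay above all early-life mice, and C1 lay among them. The difference was -0.42 ± 0.24 (95% interval -0.94 to 0.11, n = 4 and 4, limma adjusted p 0.44). The second probe gave -0.04 ± 0.32 (limma adjusted p 0.97), with controls from 7.81 to 8.96 and early-life mice from 8.24 to 8.83. Whether the Vegfa probes differed from one another was not tested.

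The ligands of Flt1 other than Vegfa had small differences. Vegfb differed by -0.08 ± 0.09 (95% interval -0.28 to 0.12) and Pgf by 0.02 ± 0.14 (95% interval -0.29 to 0.32), with limma adjusted p of 0.68 and 0.97. The Pgf probe was dim, with a median signal of 145 units. Its difference was 0.02 to 0.12 in the other ways of processing, apart from leaving out single mice. Over the 12 mice, Vegfb had an SD of 0.09, which is at percentile 5.87 of all genes tested, while Vegfc (SD 0.51) was at percentile 89.8 and Angpt1 (SD 0.49) at percentile 88.9.

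Efnb2 was the gene with the widest spread in the early-life group. Its level was 11.51, 10.43, 11.02 and 11.76 in E1 to E4, against 10.75, 10.69, 10.77 and 11.03 in C1 to C4. E2 lay below all controls, and E1 and E4 lay above all of them. The difference was 0.37 ± 0.31 (95% interval -0.32 to 1.06, n = 4 and 4, limma adjusted p 0.58). A score of oviduct epithelium, the mean of 7 marker genes relative to their means over the 12 mice, was 2.56, -0.51, 1.71 and 2.81 in E1 to E4, 0.50, -0.96, -1.36 and 0.95 in C1 to C4, and -1.75 to -0.95 in the peripubertal mice. All 7 markers were detected, none at 0. E2, the early-life mouse with the lowest Efnb2, had the lowest oviduct score of its group; the part of oviduct tissue in the Efnb2 values was not tested.

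**Figure D2:**
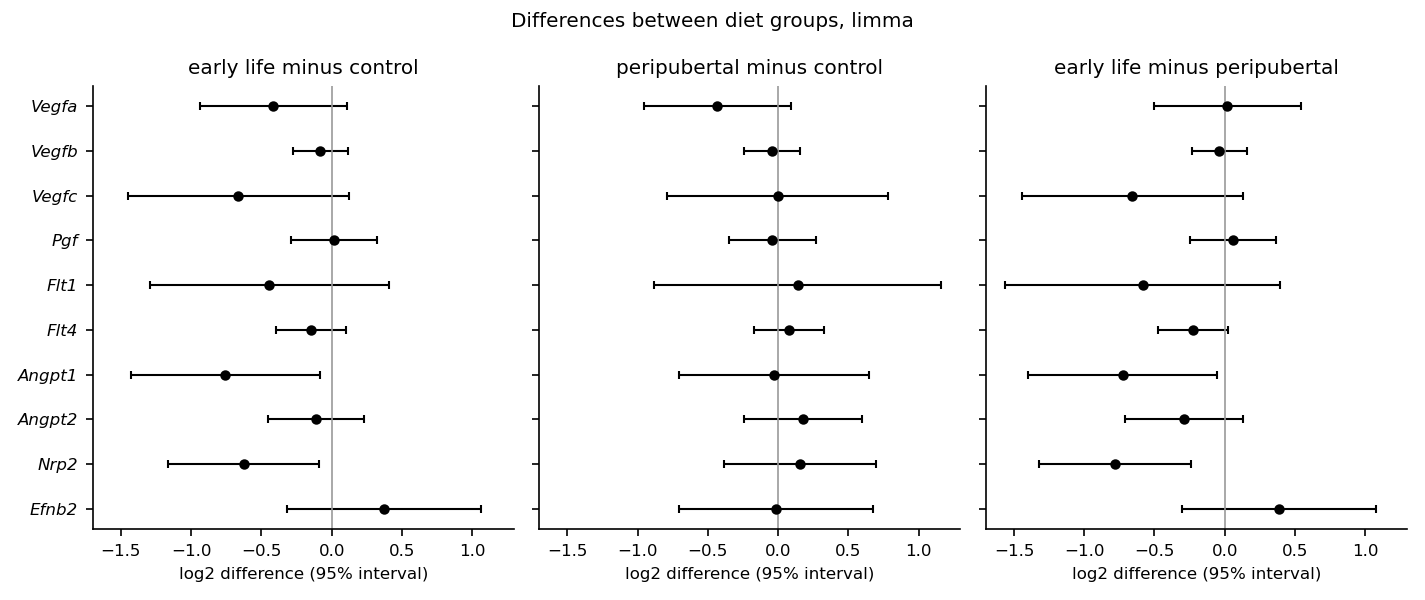
Difference between groups for each gene (horizontal axis, log2 scale, with its 95% interval from limma; vertical axis, the 10 genes), one panel per comparison. Angpt1 and Nrp2 have intervals below 0 in both comparisons of the early-life mice, and all 10 intervals include 0 in the comparison of peripubertal with control mice.

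Peripubertal and control mice were compared to ask the same of a deficiency around puberty. No member passed (0 of 10, adjusted p 0.52 to 1.00), where 50 genes or 0.269% of all did. The median difference was -0.01, against 0.01 over all genes, and 6 of 10 members were lower. The groups did not overlap in 0 of 10 members, against 16.1% of all genes, and at an unadjusted p under 0.05 there were 0 members and 2110 genes.

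Vegfa had the lowest difference here. Its first probe read 11.95, 11.39, 11.88 and 11.51 in P1 to P4 against 11.72 to 12.46 in controls, a difference of -0.43 ± 0.24 (95% interval -0.96 to 0.09, n = 4 and 4, limma adjusted p 0.52). Its second probe gave -0.37 ± 0.32 (limma adjusted p 0.71), from 8.12, 7.76, 8.75 and 8.10 in P1 to P4. Both probes of Vegfa were on the same side of control in the peripubertal mice.

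Vegfc, Angpt1 and Nrp2 differed from control by -0.01 ± 0.35, -0.03 ± 0.30 and 0.16 ± 0.24 (limma adjusted p 1.00, 0.98 and 0.85). The spread among the peripubertal mice was wide. Vegfc was 10.39, 11.35, 10.48 and 9.68 in P1 to P4, which held both the highest and the lowest value of the 12 mice. Angpt1 was 9.28, 10.09, 9.57 and 8.90, again highest in P2 and lowest in P4. Nrp2 was 9.74, 9.97, 9.66 and 9.49, in the same order at its ends but over a narrower range.

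The remaining members differed from control by 0.18 or less. Flt4 differed by 0.08 ± 0.11, Efnb2 by -0.02 ± 0.31, Pgf by -0.04 ± 0.14 and Vegfb by -0.04 ± 0.09 (limma adjusted p 0.83 to 0.99). Flt1 and Angpt2 had no usable spot for P1 and P2 on the probe tested, so that their differences of 0.14 ± 0.43 and 0.18 ± 0.18 (limma adjusted p 0.94 and 0.76) rest on P3 and P4. With outlier spots kept, these became -0.11 ± 0.31 and -0.15 ± 0.30 (limma adjusted p 0.93 and 0.89), and P1 had the lowest Angpt2 level of the 12 mice, 10.91 against 11.55 to 12.23 in the others. The second Flt1 probe, measured in all mice, gave -0.14 ± 0.31 (limma adjusted p 0.90).

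The comparison of the early-life with the peripubertal mice shares each group with one of the comparisons above and also separates the slides. No member passed (0 of 10, adjusted p 0.10 to 0.98), where 489 genes or 2.63% of all did, 388 of them lower in the early-life mice. The median difference was -0.26, against -0.03 over all genes, and 7 of 10 members were lower. The groups did not overlap in 2 of 10 members, against 24.4% of all genes, and at an unadjusted p under 0.05 there were 2 members and 4443 genes.

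Nrp2 came nearest to the threshold. Its first probe was at 8.65 to 9.27 in the early-life mice and at 9.49 to 9.97 in the peripubertal mice, with no overlap. The difference was -0.78 ± 0.24 (1.72-fold lower, 95% interval -1.33 to -0.24, n = 4 and 4, limma p 0.0090, adjusted p 0.10). The second probe, with outlier spots kept, gave -0.77 ± 0.26 (limma adjusted p 0.13) from 11.17 to 11.87 against 11.88 to 12.64. Angpt1 differed by -0.73 ± 0.30 (95% interval -1.40 to -0.05, limma p 0.037, adjusted p 0.18), and 15 of the 16 pairs of mice had the early-life mouse lower. Vegfc differed by -0.66 ± 0.35 (limma adjusted p 0.28), with P4 below all early-life mice.

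The second Flt1 probe separated these groups as well. It read 8.95 to 9.64 in early-life and 9.91 to 10.91 in peripubertal mice, a difference of -0.87 ± 0.31 (1.83-fold lower, n = 4 and 4, limma p 0.017, adjusted p over all probes 0.14). Flt4 differed by -0.22 ± 0.11 (limma adjusted p 0.25) and Efnb2 by 0.39 ± 0.31 (limma adjusted p 0.47). The Flt4 difference was -0.39 to -0.22 in the other ways of processing, apart from leaving out single mice. Angpt2 differed by -0.29 ± 0.18 (limma adjusted p 0.36) with P3 and P4 alone, and this was the other member whose groups did not overlap. With outlier spots kept its difference was 0.03 ± 0.30, so the separation rested on leaving out P1 and P2. Vegfa, Vegfb and Pgf differed by 0.02 ± 0.24, -0.04 ± 0.09 and 0.06 ± 0.14 (limma adjusted p 0.82 to 0.98).

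**Figure D3:**
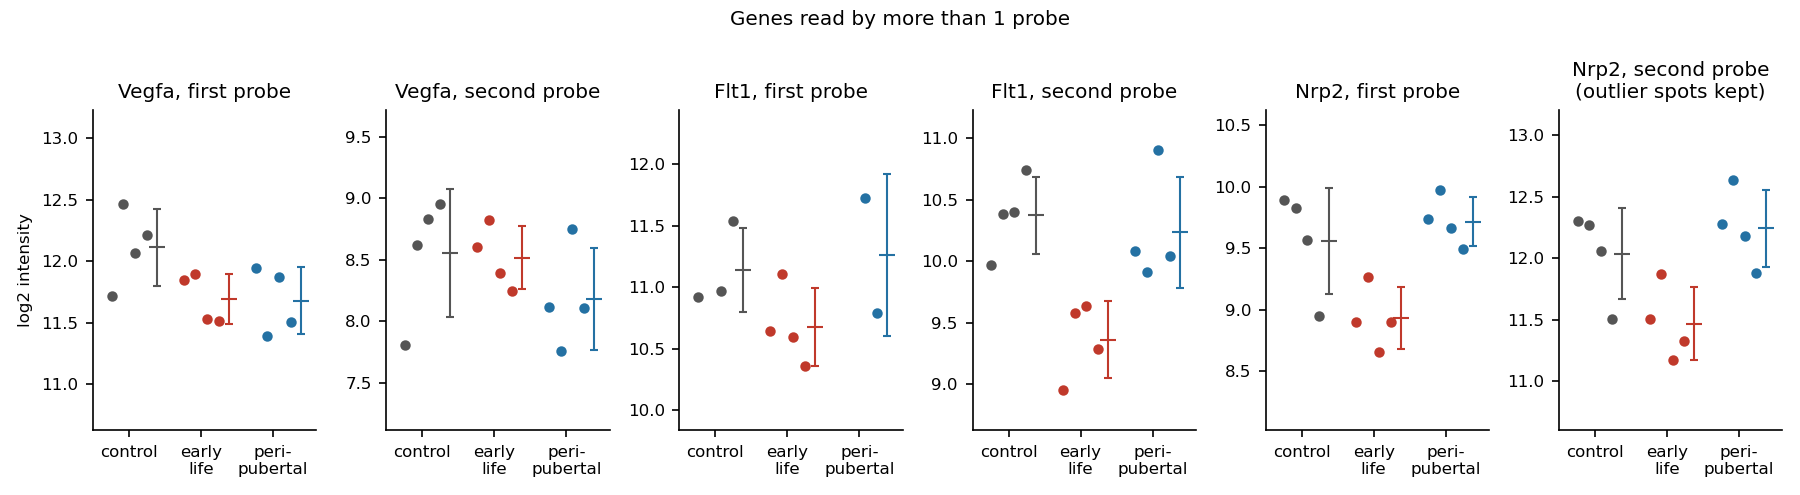
Level (vertical axis, log2 intensity, the same span in every panel) on each probe of Vegfa, Flt1 and Nrp2 in the 12 ovaries by diet group, with the mean and SD beside the points; the second Nrp2 probe is shown with outlier spots kept. The second Flt1 probe has all early-life mice below all others, the Nrp2 probes show the same order of groups, and the early-life mice overlap the controls on both Vegfa probes.

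Across the 12 mice, Vegfc, Angpt1 and Nrp2 varied together. Pearson's r was 0.96 for Vegfc and Angpt1 (Spearman's rho 0.91), 0.88 for Angpt1 and Nrp2 (rho 0.87) and 0.82 for Vegfc and Nrp2 (rho 0.85). With each group's mean removed, r was 0.95, 0.75 and 0.69. Without the 2 mice farthest from the median of the first gene of each pair, r was 0.98, 0.85 and 0.94. Over all 45 pairs of members the median r was 0.14, and 29 pairs were above 0. These values describe 12 samples that share arrays and slides and carry no test.

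The same 3 genes varied with markers of pericytes and smooth muscle and of macrophages. The pericyte and smooth muscle score (8 genes, all detected) was 0.46, 0.24, 0.26 and -0.34 in C1 to C4, -0.39, -0.45, -0.53 and -0.24 in E1 to E4, and 0.33, 0.83, -0.07 and -0.16 in P1 to P4. C4 was the lowest control mouse and P2 the highest of all in the score, as they were in Vegfc, Angpt1 and Nrp2. Its r was 0.89 with Vegfc, 0.85 with Angpt1 and 0.88 with Nrp2 (n = 12), and 0.82, 0.70 and 0.75 with group means removed. All 8 of its markers were lower in the early-life than in the control mice, with a median difference of -0.59, and 0 of 8 passed.

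The macrophage score (6 genes, all detected) was -0.80 to -0.49 in the early-life mice, -0.35 to 0.46 in controls and 0.13 to 0.91 in the peripubertal mice. Its r was 0.91 with Nrp2, 0.79 with Angpt1 and 0.77 with Vegfc (n = 12), and 0.771, 0.546 and 0.635 with group means removed. All 6 markers were lower in early-life than in peripubertal mice and 4 of 6 passed, against 2.63% of all genes. Among them was the complement gene C1qa (-1.36 ± 0.24, limma adjusted p 0.031). The C1qa call held in 17 of 24 alternatives, single mice left out included (limma adjusted p up to 0.11). It was lost only in fits that left out a mouse, and in the other ways of processing its limma adjusted p was up to 0.039. All 6 markers were also lower in early-life than in control mice, with a median of -0.74, and 0 of 6 passed there. In that comparison the groups did not overlap in 5 of 6, against 17.1% of all genes. The unadjusted limma p was under 0.05 in 6 of 6, and in 2583 of all 18559 genes.

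Markers of other tissues had higher values in the early-life than in the control mice. Of these, 5 of 6 adipocyte markers were higher (median 2.24, no overlap in 4, against 17.1% of all genes). So were 4 of 4 red blood cell markers (median 1.04) and 7 of 7 oviduct markers (median 1.76), and 0 passed in each list. In the peripubertal mice, 6 of 6 adipocyte markers (median 0.98) and 4 of 4 red blood cell markers (median 0.88) were also higher than in controls. There 6 of 7 oviduct markers were lower (median -1.13). Between early-life and peripubertal mice the red blood cell median was 0.14. The r of the oviduct score was -0.78 with Nrp2, -0.70 with Angpt1 and -0.55 with Vegfc, that of the adipocyte score -0.38, -0.48 and -0.42, and that of the red blood cell score -0.43, -0.57 and -0.58 (n = 12). In whole ovaries, fewer cells of a type and less RNA per cell cannot be told apart, and the part of any of these cell types in the Vegfc, Angpt1 and Nrp2 values was not tested.

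Flt4, Angpt2 and Flt1 had an r of 0.76 (n = 12), 0.78 (n = 10) and 0.68 (n = 9) with the blood endothelial score (11 of 12 genes detected), and of 0.56, 0.69 and 0.44 with group means removed. Without the 2 mice farthest from the median score, r was 0.57 for Flt4, 0.79 for Angpt2 and 0.32 for Flt1, so the Flt1 value rested on few mice. Flt4 had a larger r in size with the oviduct score (-0.80), and with the luteal score r was 0.68 for Flt4 and 0.66 for Flt1. The blood endothelial score was -0.18 to -0.04 in early-life, -0.12 to 0.09 in control and -0.05 to 0.28 in peripubertal mice, so the groups overlapped. Of its 11 markers, 9 were lower in early-life than in control mice (median -0.25, no overlap in 4, against 17.1% of all genes), and 0 passed. Against peripubertal mice 9 were lower in early-life mice (median -0.40) and 2 passed, against 2.63% of all genes. These were Emcn and Robo4 (limma adjusted p 0.044 and 0.042). Whether the Emcn and Robo4 calls hold in other ways of processing was not examined. With the lymphatic score (4 genes), r was 0.40 for Vegfc, 0.11 for Flt4 and 0.08 for Nrp2 (n = 12). Of the 4 lymphatic markers, 2 were lower in early-life than in control mice and 0 passed. Efnb2 had an r of 0.81 with the oviduct score (n = 12), which fell to 0.47 without E1 and E4.

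**Figure D4:**
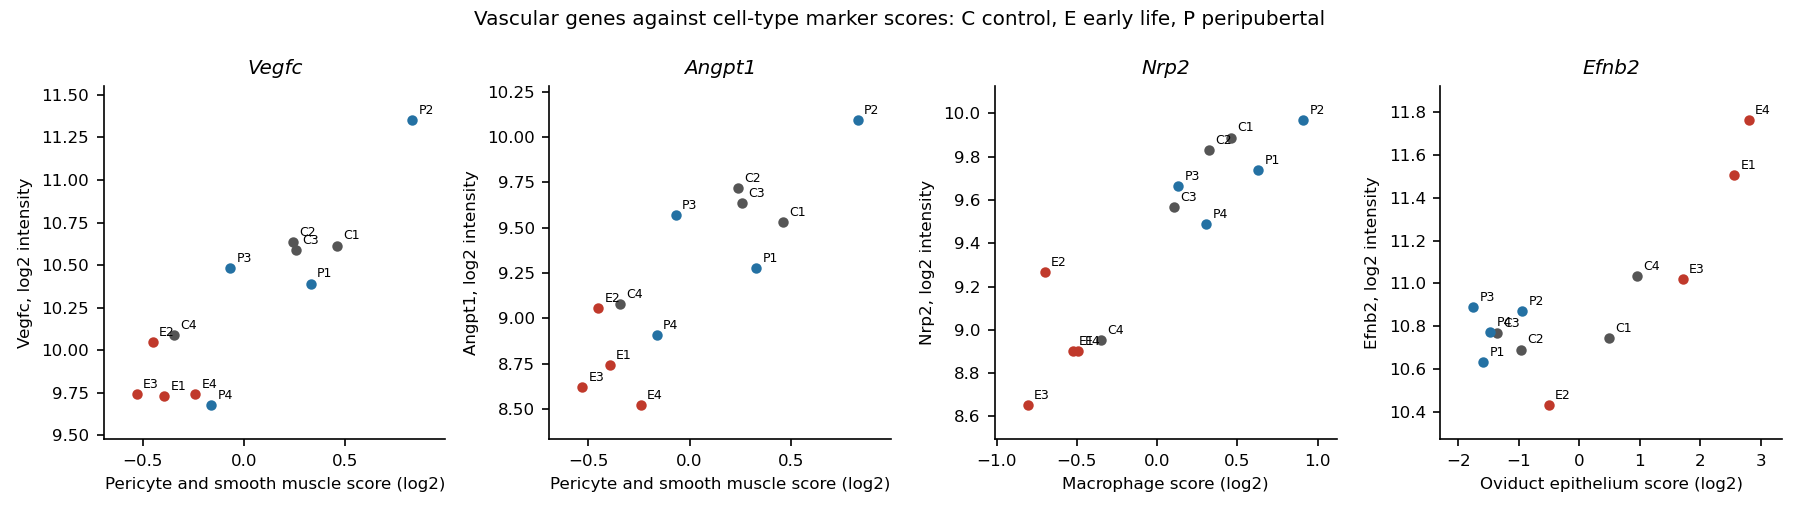
Level of Vegfc, Angpt1, Nrp2 and Efnb2 (vertical axes, log2 intensity) against a marker score of a cell type (horizontal axes, mean log2 value of the markers relative to their mean over the 12 mice); each point is a mouse, named by group and replicate. P2 is highest and the early-life mice are low in the first 3 panels, and E1 and E4 stand apart in Efnb2 and in the oviduct score.

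Among 28 other ligands and receptors of these families and of the semaphorins that share the neuropilins, all 28 were measured. For early life against control 0 passed, 14 were higher and 14 lower, and the median was -0.01. The smallest p values were those of Angpt4, a further Tek ligand (-0.51 ± 0.12, adjusted p 0.18), Ptprb, the endothelial phosphatase that acts on Tek (0.53 ± 0.15, adjusted p 0.24, with 2 control values), and the Efnb2 receptor Ephb4 (-0.26 ± 0.08, adjusted p 0.24), all by limma. Angpt4 was dim, at 7.60 in control and 7.09 in early-life mice. Apart from leaving out single mice, other ways of processing gave -1.32 to -0.34 for Angpt4, 0.23 to 1.01 for Ptprb and -0.27 to -0.04 for Ephb4. For peripubertal against control 1 gene rose, Ptprb, by 1.21 ± 0.15 (limma adjusted p 0.031), from 10.84 ± 0.11 in the 2 control mice with a usable spot to 12.05 ± 0.17 in 4 peripubertal mice (SD). That call held in 12 of 23 alternatives, single mice left out included (limma adjusted p 0.0079 to 0.18). Apart from leaving out single mice, it was lost with the mean of kept probes and with outlier spots kept. Efnb3 (0.70 ± 0.19) and Kdr, the main signalling receptor of Vegfa (-0.31 ± 0.10), had limma adjusted p of 0.24 and 0.29.

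For early life against peripubertal 2 of the 28 fell. Ptprb differed by -0.68 ± 0.12 (limma adjusted p 0.038). Nrp1, the co-receptor related to Nrp2, differed by -0.69 ± 0.15 (limma adjusted p 0.046), from 10.14 ± 0.23 in peripubertal to 9.45 ± 0.14 in early-life mice (SD, n = 4 each). The Ptprb call held in 13 of 23 and the Nrp1 call in 10 of 24 alternatives, single mice left out included. Their limma adjusted p was up to 0.43 and 0.14. Apart from leaving out single mice, it was up to 0.43 for Ptprb and 0.060 for Nrp1. The ephrin Efna4 was next, at 0.70 ± 0.16 (limma adjusted p 0.053). The median of the 28 was -0.12, and 18 were lower.

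Of 17 genes of the hypoxia pathway, which induces Vegfa in many tissues, 15 were measured (not Pgk1 and Ddit4), and 0 of 15 passed in each of the 3 comparisons, with medians of 0.05, -0.06 and 0.03 for early life against control, peripubertal against control and early life against peripubertal. At an unadjusted limma p under 0.05 there were 2, 4 and 1 of the 15, against 2583, 2110 and 4443 of all 18559 genes. Bnip3, a mitochondrial target of the pathway, was at -0.50 ± 0.14 and -0.53 ± 0.14 in the early-life and peripubertal mice against the same controls (limma adjusted p 0.23 and 0.22). With outlier spots kept, where the brightest probe is chosen anew, the peripubertal difference was 0.13. The Bnip3 probe of the main test had values in all mice, and whether 0.13 came from another probe was not examined. Hif1a, the oxygen-regulated factor itself, was at 0.48 ± 0.19 in early life against control (limma adjusted p 0.35, with 2 control values). Egln3, an oxygen-sensing hydroxylase, was at 0.52 ± 0.13 in early life against peripubertal (limma adjusted p 0.064).

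Of 18 genes that act downstream in endothelium, 16 were measured (not Hey1 and Klf2). For early life against control 0 of 16 passed, 13 were lower and the median was -0.16. Heyl and Notch4 of the Notch pathway and the TGF-beta co-receptor Eng had the smallest p, at -0.38 ± 0.12, -0.48 ± 0.20 and -0.50 ± 0.21 (limma adjusted p 0.29, 0.33 and 0.34). Heyl had 2 early-life and 3 control values. For peripubertal against control 0 of 16 passed and the median was -0.02. For early life against peripubertal 1 of 16 fell and the median was -0.22: Acvrl1, a BMP receptor of endothelium, differed by -0.92 ± 0.21 (limma adjusted p 0.049). That call held in 10 of 24 alternatives, single mice left out included (limma adjusted p 0.018 to 0.14). Apart from leaving out single mice, the limma adjusted p of Acvrl1 was up to 0.062. Nos3, the endothelial nitric oxide synthase, and Eng followed at -0.52 ± 0.15 and -0.75 ± 0.21 (limma adjusted p 0.081 and 0.082).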

How the data were processed

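Ovarian RNA of 12 mice was amplified and labelled with 1 of 2 dyes, per the labels' protocols, and Agilent Feature Extraction 11.0.1.1 read the 6 arrays, per the file headers. The deposited scanner files give each spot's mean signal and local background as intensity, not normalized, and a processed intensity. A deposited table gives log2 values whose median is 0 in each column; how the authors made it is not given in the sources used here, and 99 to 10099 features of a column have no value. It was used to check sample names and as an alternative.

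With R 4.3.3 and limma 3.58.1 (packages data.table, version 1.17.8, and statmod, version 1.5.0), background was removed by normexp (offset 50), arrays were normalized by loess and Aquantile, and channels became separate log2 values. Spots the software marks as outliers were left out (3.16% of values). A probe was kept if at least 4 of 12 samples had it well above background and each group had at least 2 values (23791 probes), and the brightest stood for each of 18559 genes. Probes were named by RefSeq accession, symbol or synonym (RefSeq table of GRCm38.p6); the rest kept the files' names. A limma model held the 3 groups and the dye, with the array as random block (correlation 0.288). The fit was also run on data simulated from the fitted model itself, which cannot show whether the model suits the real data. Probes of the members were tested in the same model over all kept probes.

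Members and lists were chosen with earlier results of these data known. Members are always named; of each gene list, up to 3 genes with the smallest p per comparison. Scores are means of detected markers. Alternatives concerned background, normalization, filters, probes, outliers, dye, array, variance model, replicate block and each sample left out. The series design states that mice are biological replicates. Precision is limited by the number of arrays. The sequence and position of the second Vegfa probe are not reported here.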

Additional observations from a re-analysis of the deposited data

Results flagged for a closer look

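In 27 group values of 4 mice each, 2 held a mouse far from the other mice of its group, and chance flags about 1 in 20 such groups. Vegfc in C4 was 10.09, against 10.59 to 10.64 in the other control mice. Vegfc in E2 was 10.05, against 9.73 to 9.74 in the other early-life mice. C4 was also the lowest control mouse in Angpt1 (9.08), Nrp2 (8.95) and the pericyte and smooth muscle score (-0.34), and E2 was the highest early-life mouse in Angpt1 (9.05) and Nrp2 (9.27).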

How the results depend on the processing

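No member passed in early life versus control or peripubertal versus control under any alternative run, the leave-one-out fits included. For early life versus peripubertal, 1 member passed (against 0) without the array block (Nrp2, -0.78, limma adjusted p 0.042), 1 with a replicate block (Angpt1, -0.73, limma adjusted p 0.049), and 0 to 1 when 1 mouse was left out (Nrp2 without C4, limma adjusted p 0.042). With group means removed, same-numbered mice of different groups correlated by -0.35 to 0.52 (median 0.04). Mice with different numbers correlated by -0.52 to 0.46 (median 0.02). These values do not settle whether the replicate numbers pair the mice. The replicate block gave 0 genes for early life versus control and 14 for peripubertal versus control. The members' median for early life versus control was 0.38 in the deposited value table under its own column names, where the groups are exchanged, and -0.36 to -0.15 when 1 mouse was left out.

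The count of all genes called depended strongly on the settings. For early life versus control (4 genes) it was 0 with no filter on dim probes, with probes above background in all samples, with the mean of kept probes and with the control and early-life samples alone. It was 1 with outlier spots kept, 19 with the software's processed signals, 35 with no dye term, 113 with no array block, 10 with the intraspot model, 16 in the deposited value table, and 0 to 88 when 1 mouse was left out, the highest without E2. For peripubertal versus control (50 genes) it was 21 with no filter, 14 with probes above background in all samples, 19 with the mean of kept probes, 26 with outlier spots kept, 80 with no dye term, 158 with no array block, and 0 to 29 when 1 mouse was left out. For early life versus peripubertal (489 genes) it was 305 with the mean of kept probes, 738 with no dye term, 2112 with no array block, 1243 with the intraspot model, and 2 to 1572 when 1 mouse was left out, lowest without E1 and highest without E2. The cause was not tested.

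Signs turned only in differences that had not passed. For peripubertal versus control, Vegfc was 0.035 with processed signals and 0.0125 with quantile normalization, and Efnb2 was 0.022 with processed signals. Flt1 was -0.25 with the mean of kept probes and -0.11 with outlier spots kept. With outlier spots kept, Angpt2 was -0.15 and Bnip3 0.13, where Bnip3 may have been read by another probe than in the main test. For early life versus peripubertal, Vegfb was 0.024 with processed signals, Vegfa -0.0037 with quantile normalization and Angpt2 0.031 with outlier spots kept. With 1 mouse left out, the ranges that include 0 were, for peripubertal versus control, Vegfc -0.32 to 0.27, Angpt1 -0.27 to 0.18, Nrp2 -0.059 to 0.25, Flt1 -0.53 to 0.70, Efnb2 -0.0605 to 0.0635 and Pgf -0.12 to 0.0046. They were, for early life versus peripubertal, Vegfa -0.11 to 0.14, Pgf -0.048 to 0.15 and Flt1 -1.20 to 0.030 (the ends of both Flt1 ranges rest on 1 peripubertal mouse, P3 or P4, assumed to vary like the other groups), and for early life versus control, Pgf -0.091 to 0.11. Signal over background of 6.85 to 9.49 and 6 arrays limit the precision.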
